A study of Mus musculus with 8 samples.

Results

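The genes described here are 10 transcription factor genes that mark the trophoblast (Cdx2, Eomes, Tfap2c, Gata2, Gata3 and Elf5) or the endoderm (Gata4, Gata6, Hnf4a and Foxa2), out of 21755 protein-coding genes on chromosomes 1 to 19 and X. They were taken by name from the mm10 annotation (GENCODE M21), and every peak whose summit lay in the gene body or within 100 kb of the gene's first start site was assigned to the gene. Of 661009 peaks in 8 libraries, 564 met this rule, and none was counted for more than 1 of the genes. The libraries were Flag CUT&Tag profiles of mouse embryonic fibroblasts on day 3 of reprogramming. CUT&Tag cuts and tags the DNA next to a protein that an antibody holds, here the Flag epitope on a delivered factor. Each library profiled 1 factor, either in its native form (Nanog, Oct4, Sox2, Nr5a2) or fused to BiD, a domain taken from SS18 through which the fusion can hold BRG1 and with it the BAF remodelling complex (NanogBiD, Oct4BiD, Sox2BiD, Nr5a2BiD). Per the study's methods, the fibroblasts were isolated at E13.5 from embryos of OG2 males, which carry an Oct4-GFP reporter, and 129 females, and the factors were delivered by retrovirus. The labels do not say which other factors a culture received. There was 1 peak list per group. The methods describe merging replicates before peak calling, whereas the study's reporting summary says that the CUT&Tag experiment had no biological replicates, so no spread between cultures can be measured. Intervals below are exact 95% binomial (Clopper-Pearson) or ratio intervals that cover counting error only.

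In the early mouse embryo, Cdx2, Eomes, Elf5, Tfap2c and the GATA factors Gata2 and Gata3 act in the trophectoderm and its stem cells, the lineage that forms the placenta. Gata6 and Gata4 act in the primitive endoderm, Foxa2 in the definitive endoderm and later in the gut and liver, and Hnf4a in the visceral endoderm and the liver. The 10 are known mainly as regulators of lineages outside the pluripotent epiblast, and Cdx2 and Gata6 are known to oppose the pluripotent state, so peaks of the delivered factors near them are of interest in fibroblasts on the way to induced pluripotency. Nr5a2 is an orphan nuclear receptor that binds DNA as a monomer, Oct4 is a POU factor that reads the octamer, and Sox2 is an HMG-box factor.

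The sequences below are shown because each holds a match to the motif of the factor profiled, next to a summit at 1 of these genes. The motifs searched were NR5A (CAAGGNCA), the octamer (ATGCAAAT) and SOX (CCATTGTT), on both strands of the summit base and the 50 bases on either side. Positions are mm10, bases are read 5′ to 3′ on the plus strand, and capitals mark the match, which is on the reverse strand where its letters read as the reverse complement. The Hnf4a sequence from native Nr5a2 is the highest summit of that library at any of the 10 genes, 88.4 kb downstream of the start. All others, and the promoter sequences printed further on, were chosen after their values were seen.
Gata4, native Nr5a2, chr14:63353579-63353679: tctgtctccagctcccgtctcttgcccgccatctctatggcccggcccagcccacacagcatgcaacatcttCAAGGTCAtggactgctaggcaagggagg
Hnf4a, native Nr5a2, chr2:163595157-163595257: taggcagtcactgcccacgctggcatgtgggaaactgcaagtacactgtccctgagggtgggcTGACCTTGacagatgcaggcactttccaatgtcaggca
Tfap2c, native Nr5a2, chr2:172468375-172468475: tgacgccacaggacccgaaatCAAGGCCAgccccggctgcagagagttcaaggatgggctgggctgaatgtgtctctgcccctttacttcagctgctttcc
Gata2, native Nr5a2, chr6:88124504-88124604: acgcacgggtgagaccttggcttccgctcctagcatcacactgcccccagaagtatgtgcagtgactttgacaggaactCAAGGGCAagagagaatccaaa
Cdx2, native Nr5a2, chr5:147293134-147293234: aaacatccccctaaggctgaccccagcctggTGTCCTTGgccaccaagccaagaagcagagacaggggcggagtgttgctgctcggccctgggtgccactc
Elf5, native Nr5a2, chr2:103346922-103347022: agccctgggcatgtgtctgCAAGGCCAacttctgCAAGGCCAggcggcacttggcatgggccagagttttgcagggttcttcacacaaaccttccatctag
Elf5, Oct4BiD, chr2:103348180-103348280: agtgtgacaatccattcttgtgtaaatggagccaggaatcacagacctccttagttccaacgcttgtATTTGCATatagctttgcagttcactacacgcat
Gata3, Oct4BiD, chr2:9942482-9942582: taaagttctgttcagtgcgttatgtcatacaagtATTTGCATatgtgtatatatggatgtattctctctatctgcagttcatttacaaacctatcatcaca
Hnf4a, Sox2BiD, chr2:163414327-163414427: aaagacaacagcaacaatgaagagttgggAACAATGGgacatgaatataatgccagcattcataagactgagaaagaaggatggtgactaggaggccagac
Eomes, Sox2BiD, chr9:118518708-118518808: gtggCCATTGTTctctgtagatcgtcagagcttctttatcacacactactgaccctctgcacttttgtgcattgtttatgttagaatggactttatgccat

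Most of these summits lie far from the gene they were assigned to. The Gata4 summit (67 tags) was 81.9 kb upstream of the first start site and intergenic, the Tfap2c summit (42 tags) was 81.2 kb upstream in an intron of Rtf2, and the Gata2 summit (55 tags) was 69.3 kb upstream. The Cdx2 summit (34 tags) was 14.1 kb downstream. At Elf5, a single merged region in an intron of A930006I01Rik, chr2:103346430-103348921, held the Nr5a2 summit with a pair of NR5A matches (48 tags) and the Oct4BiD summit with an octamer (61 tags). They were not at the same place in it, the Nr5a2 summit lying 64.7 kb and the Oct4BiD summit 63.5 kb upstream of the first start. Native Oct4 had a summit of 15 tags over the same octamer. The Hnf4a SOX match lay under summits of both native Sox2 (27 tags) and Sox2BiD (48 tags), 92.4 kb upstream in an intron of Oser1.

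The 10 genes together held 43 summits in native Nanog, 50 in NanogBiD, 40 in native Oct4, 74 in Oct4BiD, 34 in native Sox2, 87 in Sox2BiD, 150 in native Nr5a2 and 86 in Nr5a2BiD. Native Nr5a2 was the highest library and native Sox2 the lowest. Libraries differed in how many peaks they listed, from 54794 in native Oct4 to 120594 in Sox2BiD. Per 10000 peaks, the 10 genes took 13.9 summits in native Nr5a2 and 11.3 in Nr5a2BiD, against 5.85 to 7.87 in the other 6 libraries, so the Nr5a2 libraries stood above the rest on this scale as well. A raised Nr5a2 part was not particular to the 10 genes. The Nr5a2 libraries held 27.9% of all peaks but 33.3% of the summits at the median coding gene with 20 or more summits. The median gene of the 10 had 14 summits in native Nr5a2 and the median protein-coding gene 15, and in every other library the median of the 10 was also below that of all coding genes (4 against 7 in native Nanog, 7.5 against 12 in Sox2BiD). These windows were thus no richer in peaks than those of the median coding gene.

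**Figure D1:**
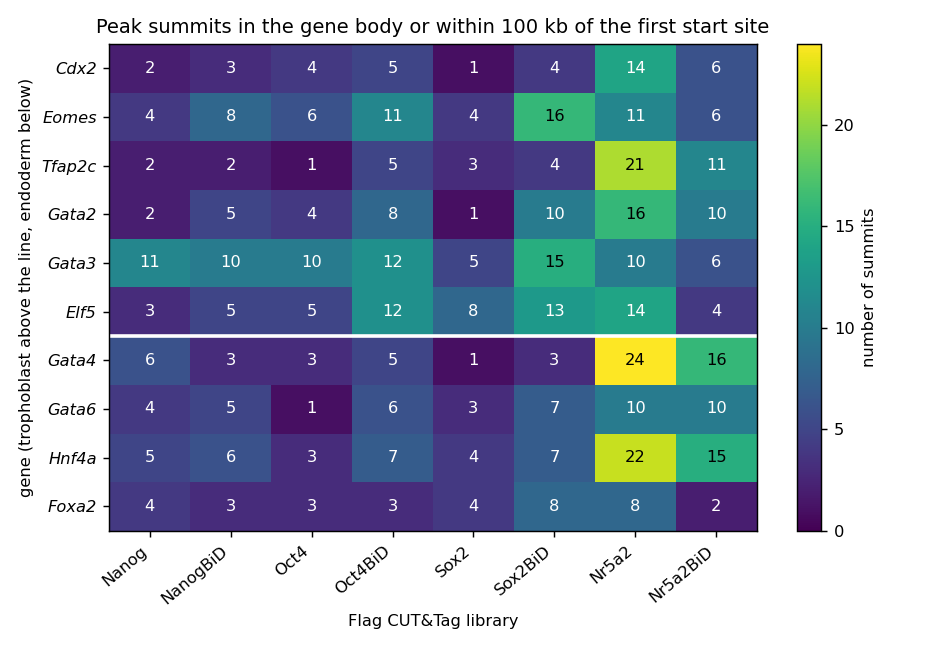
Number of peak summits in the gene body or within 100 kb of the first start site, for each of the 10 genes (rows) in each of the 8 libraries (columns). Gata4 (24), Hnf4a (22) and Tfap2c (21) have their highest counts in native Nr5a2, and Gata3 has 5 to 15 summits in every library.

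Of the 564 summits, 31 (5.5%) were within 2 kb of an annotated start site of the gene itself, 116 (20.6%) were within 2 kb of a start site of another gene, and 417 (73.9%) were distal to any start site. The body of the assigned gene itself held 65. The median distance from the first start site was 57.4 kb. Just inside the window limit, between 90 and 100 kb from the start, there were 77 summits, and just outside it, between 100 and 110 kb, there were 82. Assignment by distance does not say which gene a distal peak acts on.

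Among the trophoblast genes, Cdx2, the caudal-type homeobox factor needed for trophectoderm, held 2 summits in native Nanog, 3 in NanogBiD, 4 in native Oct4, 5 in Oct4BiD, 1 in native Sox2, 4 in Sox2BiD, 14 in native Nr5a2 and 6 in Nr5a2BiD. No library had a summit within 2 kb of its only start site. The closest regions were 1 in a coding exon of Cdx2, listed in both Nr5a2 libraries alone (41 and 24 tags), and 1 at 7.7 kb upstream, listed in native Nanog, NanogBiD and Sox2BiD. The T-box gene Eomes had 4, 8, 6, 11, 4, 16, 11 and 6 summits in the same library order, with its highest count in Sox2BiD. It also had none at its own promoter and none in its gene body.

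Tfap2c, which encodes AP-2gamma, had 2 summits in each Nanog library, 1 in native Oct4, 5 in Oct4BiD, 3 in native Sox2, 4 in Sox2BiD, 21 in native Nr5a2 and 11 in Nr5a2BiD. Both Nr5a2 libraries exceeded all the others at this gene. Gata2 showed a similar order, with 16 summits in native Nr5a2 and 10 in Nr5a2BiD, but Sox2BiD also had 10, and native Sox2 had 1. At Gata3 the counts were 11, 10, 10, 12, 5, 15, 10 and 6 in the same library order, so that the Nr5a2 libraries did not stand above the others. Elf5, an ETS factor of trophoblast stem cells, had 3, 5, 5, 12, 8, 13, 14 and 4. There the native and BiD Nr5a2 libraries lay at opposite ends of the range, apart from native Nanog at 3.

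Among the endoderm genes, Gata4 held 6 summits in native Nanog, 3 in NanogBiD, 3 in native Oct4, 5 in Oct4BiD, 1 in native Sox2, 3 in Sox2BiD, 24 in native Nr5a2 and 16 in Nr5a2BiD. The lower of the Nr5a2 counts was more than any other library's. For Hnf4a, a nuclear receptor gene, the counts were 5, 6, 3, 7, 4, 7, 22 and 15 in that order, and again both Nr5a2 libraries lay above the rest. Gata6 had 4, 5, 1, 6, 3, 7, 10 and 10, its 2 Nr5a2 libraries being equal. Foxa2, a forkhead pioneer factor, had the fewest summits of the 10 over all libraries (35), with 8 in Sox2BiD, 8 in native Nr5a2 and 2 in Nr5a2BiD. All 35 were distal, and no other protein-coding gene shares its window.

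The share of a gene's summits that came from the 2 Nr5a2 libraries put the genes in order. It was 65.6% at Gata4 (40 of 61 summits, 52.3 to 77.3) and 65.3% at Tfap2c (32 of 49, 50.4 to 78.3), and 99.4% of the 18730 coding genes with 20 or more summits had a lower share than either. Next came Hnf4a at 53.6% (41.2 to 65.7), Cdx2 at 51.3% (34.8 to 67.6), Gata2 at 46.4% and Gata6 at 43.5%, with 96.8%, 95.5%, 90.7% and 85.4% of coding genes lower. Foxa2 (28.6%), Elf5 (28.1%), Eomes (25.8%) and Gata3 (20.3%) lay below the median coding gene, at 33.3%. Over all peaks the share was 27.9%. Neighbours in this order have overlapping intervals, and the genes were not tested against each other. A site listed in both forms counts once per form, and 91.9% of Nr5a2BiD peaks at the 10 genes overlapped a native Nr5a2 peak. The intervals take such summits as independent and are therefore too narrow. With 20000 peaks of highest score per library, where the Nr5a2 libraries hold 25% of all peaks, the share was 70% at Gata4 and 60% at Hnf4a, but 50% at Tfap2c and 20% at Cdx2, on 10 to 15 summits each. In the BiD libraries alone, where Nr5a2BiD holds 20.8% of all peaks, it was 59.3% at Gata4, 50% at Tfap2c, 42.9% at Hnf4a and 33.3% at Cdx2.

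**Figure D2:**
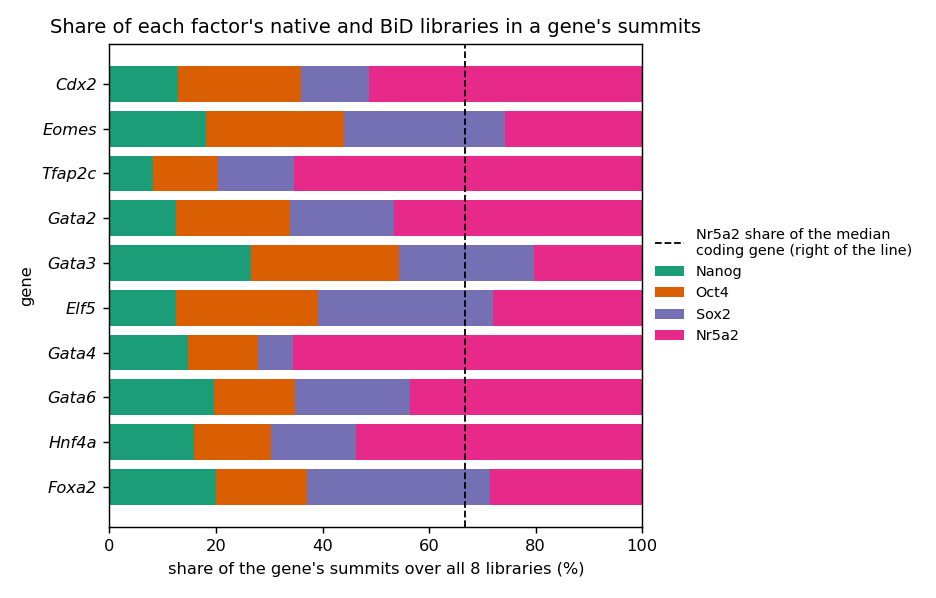
Share (%) of each gene's summits that came from the native and BiD libraries of Nanog, Oct4, Sox2 and Nr5a2, with the Nr5a2 share of the median coding gene (33.3%) to the right of the dashed line. The Nr5a2 part passes that line at Cdx2, Tfap2c, Gata2, Gata4, Gata6 and Hnf4a and falls short of it at Eomes, Gata3, Elf5 and Foxa2.

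The other factors took the space that Nr5a2 left. Sox2 libraries held 34.3% of the summits at Foxa2, 32.8% at Elf5 and 30.3% at Eomes. These were above the median coding gene (22.9%) and, by less, above the share of all peaks in these libraries (27%). At Gata4 the Sox2 libraries held 6.6%, where 0.6% of coding genes had a lower share. Nanog libraries held 26.6% of the summits at Gata3 and 8.2% at Tfap2c, against 21.7% at the median coding gene and 22.6% of all peaks. Oct4 libraries ranged from 12.2% at Tfap2c to 27.8% at Gata3, against 21.1% at the median coding gene and 22.5% of all peaks. Because these shares sum to 100% within a gene, they are not independent of the Nr5a2 share.

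Promoters were considered next. At 4 of the 10 genes (Cdx2, Eomes, Hnf4a and Foxa2) no library had a summit within 2 kb of any annotated start, which also held for 23.7% of coding genes. The number of the 10 genes with an own-promoter summit was 3 in native Nanog (51.6% of coding genes), 3 in NanogBiD (55%), 2 in native Oct4 (39.3%), 4 in Oct4BiD (56.4%), 2 in native Sox2 (25.4%), 3 in Sox2BiD (53.8%), 5 in native Nr5a2 (64%) and 5 in Nr5a2BiD (54.4%). In all 8 libraries the share of the 10 genes was below that of coding genes, by little in native Sox2 and Nr5a2BiD. Own-promoter summits made up 4% of the summits at the 10 genes in native Nr5a2 (1.48 to 8.5) and up to 6.98% in native Nanog (1.46 to 19.1), and the intervals of all 8 libraries overlapped. By factor, the BiD library differed from the native library by -0.98 percentage points with Nanog, 1.76 with Oct4, -1.28 with Sox2 and 2.98 with Nr5a2. These rest on 2 to 6 own-promoter summits per library and were not distinguishable at these counts.

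Several of these genes have more than 1 annotated start, and the first is not always the start of the main transcript. Of the 31 own-promoter summits, 23 were within 2 kb of the start of a protein-coding transcript in the basic set of GENCODE, at 5 genes. Gata3 was the only 1 of the 10 genes with such a summit in all 8 libraries. By the wider rule of any annotated start, 17.4% of coding genes had a summit in all 8 libraries. At Gata3 the region chr2:9877937-9880188, an intron of a longer transcript, held a summit of 34 tags in native Nanog, 31 in NanogBiD, 24 in native Oct4, 38 in Oct4BiD, 18 in native Sox2, 21 in Sox2BiD, 30 in native Nr5a2 and 26 in Nr5a2BiD. All 8 summits lay 1004 to 1174 bp upstream of the basic protein-coding start. The native Sox2 height was at the 30.5th percentile of that library and the native Nanog height at the 88.2nd percentile of its own, so this was a middling to high peak rather than an extreme one in any library. The bases within 50 bp of the Oct4BiD summit held no octamer and no SOX, NR5A or NANOG (GCCATTA) match. They held an AP-1 match (TGANTCA), shown in capitals.
Gata3 promoter, Oct4BiD, chr2:9879676-9879776: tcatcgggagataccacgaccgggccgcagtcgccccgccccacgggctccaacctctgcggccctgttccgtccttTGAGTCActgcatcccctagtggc

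Gata6 had a promoter summit in 7 libraries, as did 15.5% of coding genes at any annotated start. The Gata6 summit was 18 tags high in native Nanog, 22 in NanogBiD, 11 in native Oct4, 22 in Oct4BiD, 16 in Sox2BiD, 43 in native Nr5a2 and 28 in Nr5a2BiD, and native Sox2 listed none. Gata4 was the opposite case, with summits at any annotated start in 2 libraries, as at 8.13% of coding genes. Its basic start had a summit only in native Nr5a2 (78 tags, 342 bp upstream) and Nr5a2BiD (34 tags, 327 bp upstream), and so did the start of its longer transcripts, 26.3 kb upstream of the basic start (28 and 27 tags). The 78-tag summit was at the 99.3rd percentile of height in native Nr5a2, and of all regions at the 10 genes listed in both forms of Nr5a2 and no other library it had the highest summed score. The bases within 50 bp of it, all in lower case, held no match to any of the motifs searched.
Gata4 promoter, native Nr5a2, chr14:63245563-63245663: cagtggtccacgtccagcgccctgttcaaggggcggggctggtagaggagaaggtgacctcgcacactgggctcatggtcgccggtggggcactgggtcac

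Tfap2c had summits of 34 tags in native Nr5a2 and 17 tags in Nr5a2BiD, 67 and 35 bp upstream of an internal basic start, and a summit of 10 tags in Oct4BiD 84 bp upstream of the first. At Elf5, both Nr5a2 libraries had a summit of 17 tags within 218 bp upstream of the first start, and Oct4BiD had 1 of 12 tags at an internal start. Sox2BiD had an Elf5 summit of 22 tags, 1457 bp downstream of a protein-coding start outside the basic set and 2159 bp from the nearest basic start. Other Elf5 summits counted as promoter, in Sox2BiD (65 tags, at the 97.7th percentile) and native Sox2 (19 tags), lay near the start of a short non-coding transcript. They were 20.9 kb downstream of the nearest basic start. Gata2 likewise had only the Nanog libraries (10 and 12 tags), next to a retained-intron transcript. Summits within 2 kb of a basic start of Gata4, Tfap2c and Elf5 were thus found in both Nr5a2 libraries and in Oct4BiD for the latter pair. None was listed in the Nanog or Sox2 libraries, but the 22-tag Sox2BiD summit at Elf5 lay just outside this distance. At any annotated start, native Nr5a2 had a summit at 64% of coding genes and native Sox2 at 25.4%. How many coding genes show the same split between factors was not counted, so the split is not a result about these genes.

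**Figure D3:**
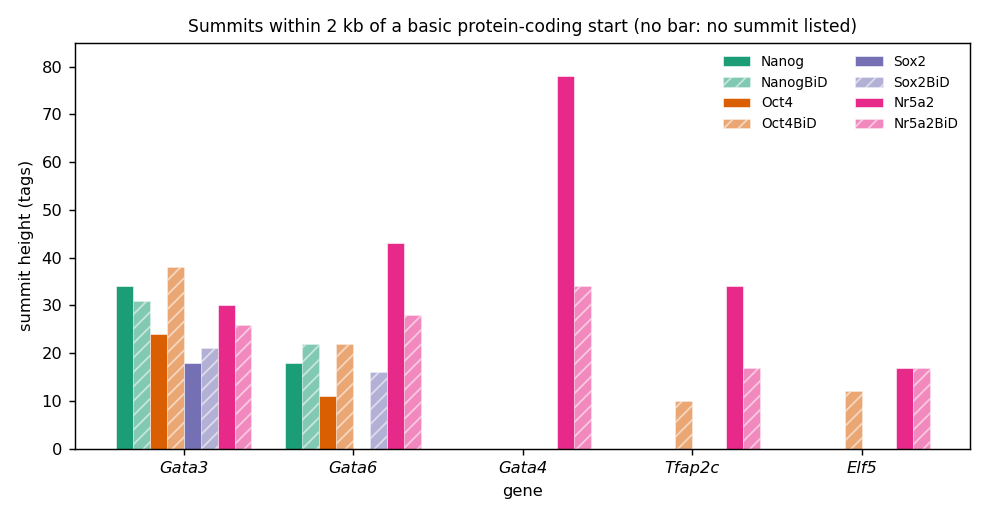
Summit height (tags, not scaled for depth) of summits within 2 kb of a basic protein-coding start, for the 5 genes that had any, with native libraries as solid and BiD libraries as hatched bars and no bar where no summit is listed. Gata3 has a bar in all 8 libraries (18 to 38 tags), Gata6 in 7, and Gata4 in native Nr5a2 (78) and Nr5a2BiD (34) only.

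The BiD fusion was then compared with the native factor, gene by gene. With NanogBiD, 6 of the 10 genes had more summits than with native Nanog and 3 had fewer (53.6% and 21.4% of coding genes). Oct4BiD had more than native Oct4 at 9 genes and fewer at none (82.9% and 4.63%), Foxa2 being equal. Sox2BiD had more than native Sox2 at 10 of 10 genes (89.1% higher and 1.69% lower over coding genes). Nr5a2BiD had fewer than native Nr5a2 at 9 genes and more at none (4.22% higher and 82% lower), with Gata6 equal. Each of these counts was near its genome-wide share, so the direction at the 10 genes was that of the libraries as wholes.

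In summits over the 10 genes, the log2 ratio of NanogBiD over native Nanog was 0.22 (-0.40 to 0.84). The ratio was 0.89 with Oct4 (0.31 to 1.48), 1.36 with Sox2 (0.77 to 1.97) and -0.80 with Nr5a2 (-1.20 to -0.41). Over all coding genes the ratios were 0.19, 0.86, 1.33 and -0.56, all inside the intervals of the 10 genes, and over all peaks they were 0.04, 0.78, 1.05 and -0.50. Relative to the total number of peaks, these ratios shrank to 0.11 (Oct4), 0.30 (Sox2) and -0.30 (Nr5a2), and the Nanog ratio turned to -0.08 in a window of 50 kb. With 1 library per group there is no test of any of these differences, and no p-value is given.

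**Figure D4:**
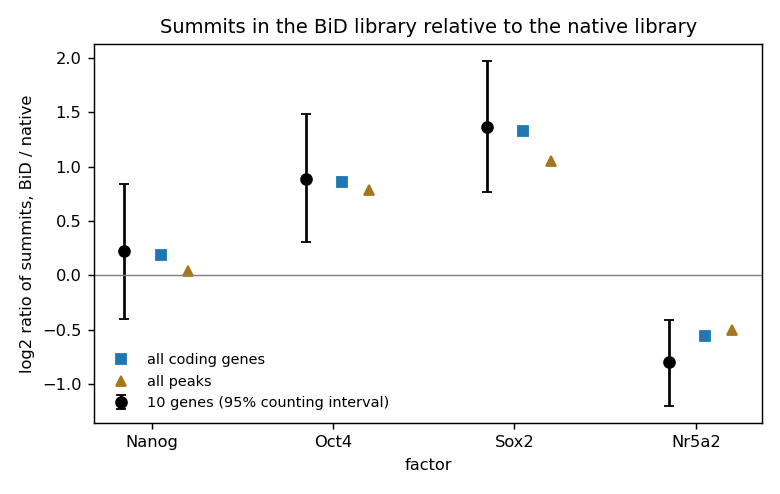
Log2 ratio of the number of summits in the BiD library over the native library for each factor, at the 10 genes (circles, bars are exact 95% counting intervals), over all coding genes (squares) and over all peaks (triangles). The Nr5a2 ratio is negative (-0.80) where the Oct4 (0.89) and Sox2 (1.36) ratios are positive, and each all-gene value lies inside the interval of the 10 genes.

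Peaks of the form with fewer peaks mostly overlapped those of the other form. Of the native Sox2 peaks at the 10 genes 91.2% overlapped a Sox2BiD peak, whereas 33.3% of the Sox2BiD peaks overlapped a native Sox2 peak. The corresponding shares were 80% and 43.2% for Oct4 and 72.1% and 60% for Nanog. For Nr5a2 the order was the other way, with 52.7% of native peaks and 91.9% of BiD peaks overlapped. Where the forms overlapped, their summits were a median of 39 (Sox2) to 52.5 bp (Oct4) apart. The same overlap shares over all peaks are not given here, so these describe the 10 genes without a genome-wide reference. Over the genome, Sox2BiD listed 120594 peaks and native Sox2 58162, while native Nr5a2 listed 108030 and Nr5a2BiD 76217.

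Merging overlapping peaks of the 8 libraries gave 291 regions at the 10 genes. Of these, 140 (48.1%, 42.2 to 54) had a peak in 1 library only, against 46% of all regions in the genome. A further 92 (31.6%, 26.3 to 37.3) were listed in both forms of 1 factor and no other library, against 25.5% genome-wide, 56 (19.2%, 14.9 to 24.3) in libraries of more than 1 factor, against 27%, and 3 (1.03%, 0.213 to 2.98) in all 8 libraries, against 1.49%. The mean Jaccard index, the number of shared regions over the number of regions in either library, was 0.425 ± 0.0844 (SD over 4 pairs) between the forms of 1 factor and 0.106 ± 0.0399 (SD over 24 pairs) between libraries of different factors. The lowest same-factor pair (Sox2, 0.322) lay above the highest pair of different factors (0.171). Genome-wide the means were 0.464 and 0.148.

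The 3 regions present in all 8 libraries were the Gata3 promoter, a region 93.7 kb downstream of the first Gata4 start that covers the promoter of Fdft1 (squalene synthase), and a region 87.2 kb upstream of Hnf4a in Oser1. The last 2 are at promoters of neighbouring genes. Of the 92 regions listed in both forms of 1 factor only, 53 were Nr5a2 regions, 17 Sox2, 14 Oct4 and 8 Nanog. The Nr5a2 regions were most numerous at Gata4 (11), Hnf4a (9) and Tfap2c (8), and the Sox2 regions at Elf5 (5) and Foxa2 (4). Of the regions found in 1 library, 54 were in native Nr5a2, 35 in Sox2BiD, 23 in Oct4BiD and 10 in NanogBiD, whereas native Sox2 had 2 and Nr5a2BiD 4. Neither split was set beside the same split over the genome, so neither is a result about these genes. The libraries differed in total peaks, with 120594 in Sox2BiD and 108030 in native Nr5a2 but 58162 in native Sox2.

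The most recurrent region of Gata6 was its promoter, described above, and those of Tfap2c, Gata2, Elf5, Foxa2, Cdx2 and Eomes were distal or at another gene's promoter. At Tfap2c it lay 94.1 kb downstream, chr2:172642503-172644956, and was listed in 7 libraries, with 60 tags in Sox2BiD, 36 in NanogBiD, 26 in native Nanog, 24 in native Sox2, 21 in Oct4BiD, 13 in native Nr5a2 and 12 in Nr5a2BiD. Sox2BiD was thus the highest there and the Nr5a2 libraries the lowest, although Nr5a2 led the count of summits at this gene. Gata2 had 3 regions in 5 libraries each. The one of highest summed height was 48.8 kb downstream in an intron of Dnajb8, with 47 tags in each Nr5a2 library and 11 to 19 tags in NanogBiD, Oct4BiD and Sox2BiD. For Elf5 it was 73.5 kb downstream in 7 libraries (12 to 26 tags), for Foxa2 68.9 kb upstream in 6 (10 to 31 tags), and for Cdx2 94.2 kb upstream in 5. The Foxa2 summits ran from position 148115890 in Oct4BiD to 148117662 in native Nr5a2, so its libraries did not share a single summit. Eomes had 2 regions in 5 libraries each, 76.4 and 88.6 kb upstream.

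The highest summit at the 10 genes was at the same place in only the Sox2 pair of libraries. It was 93.6 kb upstream of Eomes in native Nanog (37 tags), at the Oser1 region near Hnf4a in NanogBiD (47 tags), 80.2 kb upstream of Foxa2 in native Oct4 (57 tags) and 3.9 kb upstream of the first Gata3 start in Oct4BiD (65 tags). Native Sox2 (54 tags) and Sox2BiD (82 tags) shared theirs, in an intron of Taf3 66.3 kb upstream of Gata3. Native Nr5a2 had its highest near Hnf4a (81 tags) and Nr5a2BiD 88.7 kb upstream of Tfap2c (53 tags). These heights were between the 90.8th and the 99.6th percentile of their libraries. The median height over the 10 genes (15 to 20 tags) was at the 32.5th to 51.9th percentile of each library, so most of the summits here were of ordinary or lower height.

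**Figure D5:**
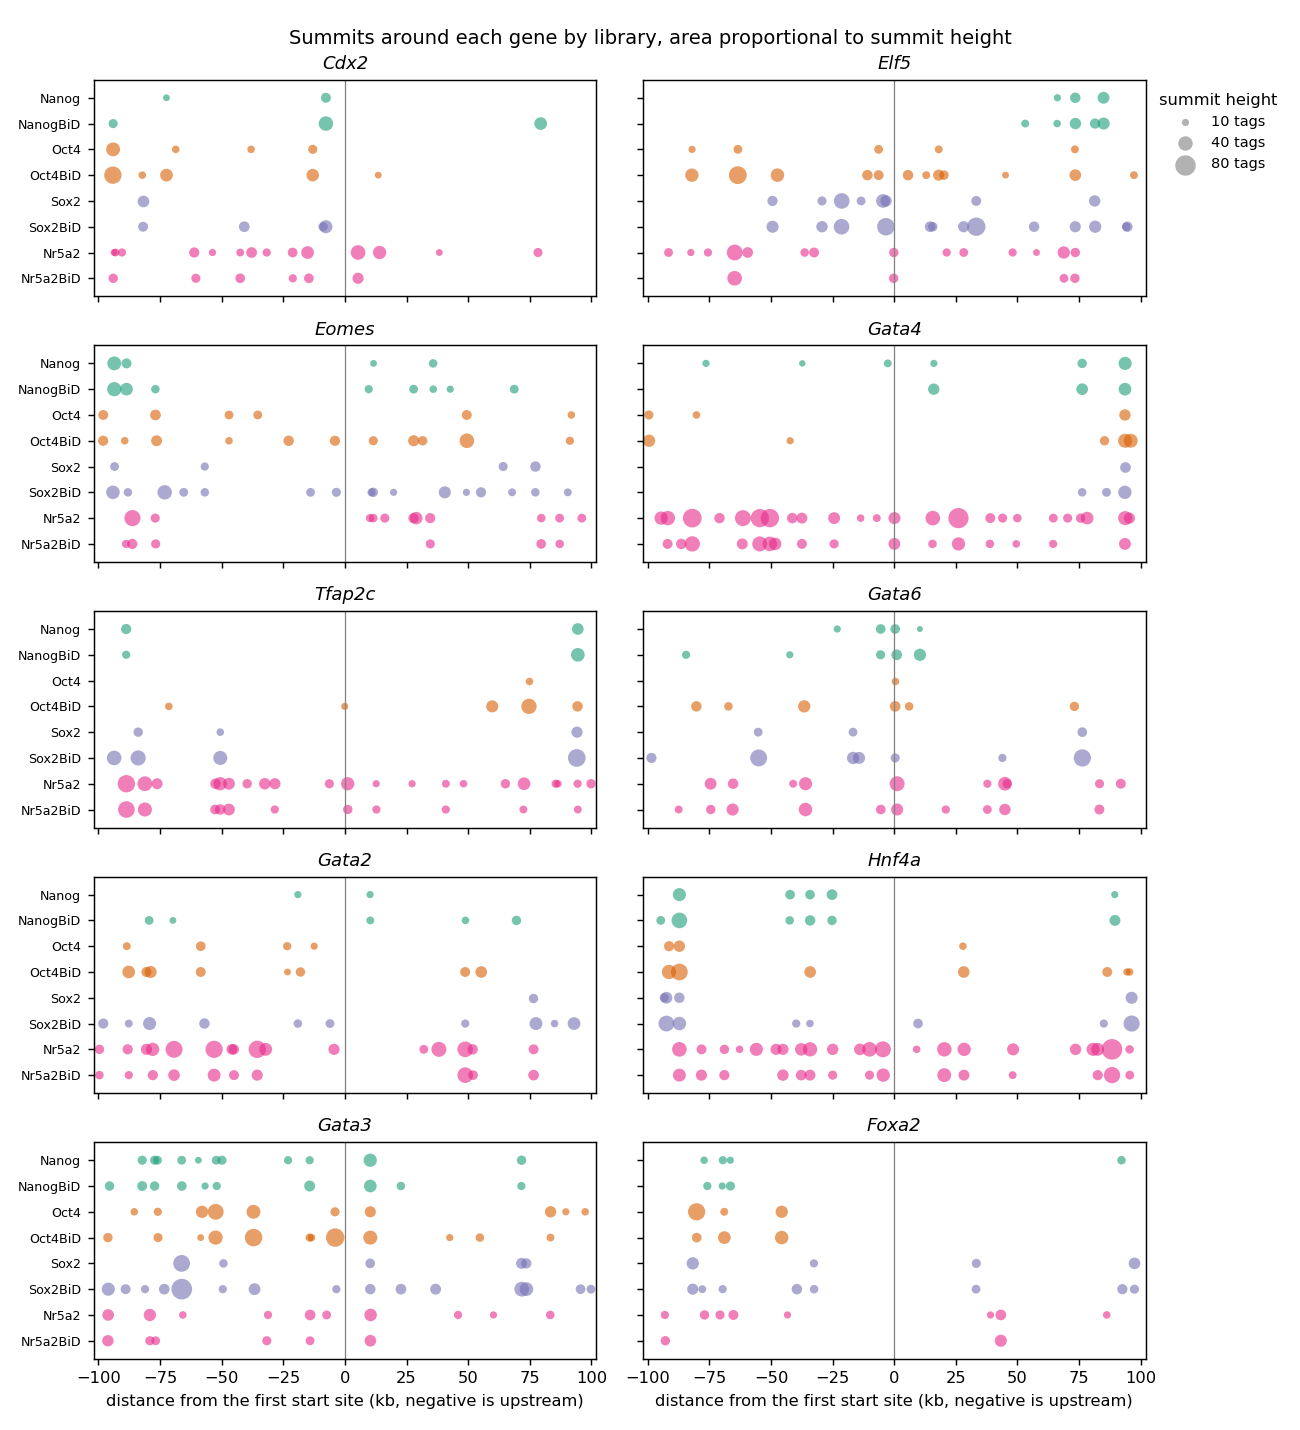
Position of each summit relative to the first start site of the gene (kb, negative is upstream) in the 8 libraries, 1 panel per gene, with the area of a point proportional to summit height in tags. Gata3 shows a column of points in all 8 libraries at 10.3 kb, and Gata4 shows its densest rows in the Nr5a2 libraries (24 and 16 summits, against 1 to 6 in the others). Cdx2, Eomes, Gata2, Gata3, Hnf4a and Foxa2 show none within 2 kb of 0.

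Among regions listed in both forms of 1 factor and in no other library, the one of highest summed score was taken for each factor. For Nanog it was a region 85 kb downstream of Elf5 (27 tags in native Nanog and 28 in NanogBiD). The Oct4 case was 74.7 kb downstream of Tfap2c, with 11 tags in native Oct4 and 45 in Oct4BiD. For Sox2 it was 21.4 kb upstream of the first Elf5 start, with 47 tags in each form. The Nr5a2 case was the Gata4 promoter described above. Heights were not scaled for depth, so a difference in height between libraries can also come from their depth, whose part was not tested.

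The motif of the profiled factor was counted under all summits at the 10 genes. NR5A occurred under 40 of 150 native Nr5a2 summits (26.7%, against 24.6% of all summits of that library) and under 20 of 86 Nr5a2BiD summits (23.3%, against 19.9%), and under 0 to 2.94% of the summits of the other 6 libraries. By gene, the Nr5a2 summits with a match were 11 of 26 at Gata2, 11 of 37 at Hnf4a, 8 of 32 at Tfap2c, 8 of 40 at Gata4, 6 of 20 at Cdx2, 6 of 20 at Gata6, 3 of 18 at Elf5, 3 of 10 at Foxa2, 2 of 17 at Eomes and 2 of 16 at Gata3. These counts pool both Nr5a2 libraries, so a site listed in both is counted in each. The octamer was under 4 of 74 Oct4BiD summits (5.41%, against 9.72% of all) and 1 of 40 native Oct4 summits (2.5%, against 4.17%). SOX was under 6 of 87 Sox2BiD summits (6.9%, against 3.29% of all) and 1 of 34 native Sox2 summits (2.94%, against 1.9%). None of the 43 native Nanog or 50 NanogBiD summits held GCCATTA, which 1.7% and 2.55% of all summits of those libraries held. A match is a description of the letters near a summit, and its absence says nothing about binding.

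For comparison, 12 further trophoblast genes, 12 further endoderm genes and 12 fibroblast marker genes were counted in the same way. In the trophoblast list Sox2BiD was above native Sox2 at 12 of 12 genes and Nr5a2BiD below native Nr5a2 at 12 of 12. Over coding genes these shares were 89.1% and 82%, so the direction was that of the libraries as wholes. The fibroblast markers went the same way, at 12 and 11 of 12 genes. Fgfr2, the FGF4 receptor of trophoblast stem cells, had the most summits (1147 over 8 libraries), in an annotated window of 3061 kb, and Esx1 the fewest (26). In the endoderm list Sox2BiD was above native Sox2 at 12 of 12 genes and Nr5a2BiD below native Nr5a2 at 10. Cubn, the endocytic receptor cubilin, had the most (209, in a window of 315.5 kb), and Sox17, an endoderm HMG-box factor, the fewest (10). Fibroblast markers, which include collagens and Twist factors, had an own-promoter summit at 12 of 12 genes in each Nanog library, at 10 in each Oct4 library, at 7 in native Sox2, at 11 in Sox2BiD and at 10 in each Nr5a2 library. Among them, Prrx1 had the most summits (139) and Twist1 the fewest (60). The same count was 2 to 5 of 10 at the 10 genes, 1 to 7 of 12 at the further trophoblast genes and 3 to 7 of 12 at the further endoderm genes. Over coding genes the share ran from 25.4% with native Sox2 to 64% with native Nr5a2. Against the coding-gene share of the same library, fibroblast markers were higher in all 8 libraries and the further trophoblast genes lower in all 8. The further endoderm genes were higher with native Sox2 (5 of 12) and Sox2BiD (7 of 12, against 53.8%), and lower elsewhere. These differences were not tested. Peaks do not measure expression, and no RNA from these cells was used here.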

How the data were processed

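The 8 Flag CUT&Tag libraries (day 3) were used as the authors deposited them, as a peak and a summit list each. Per the methods and the submitters' processing notes, reads were trimmed with Trim Galore 0.6.4 and aligned to mm10 with Bowtie2 2.4.5, SAMtools 1.16.1 removed repetitive, mitochondrial and low-quality reads, and MACS 1.4.2 called peaks, on merged replicates by the methods although the reporting summary states that there were none. No control library is named. The score that the authors deposited with a peak is MACS's p-value as -10 log10 (50 at the lowest). The signal deposited for each summit is its height in tags, not scaled for depth. The deposited files hold no read totals. The study's reporting summary lists read pairs per library, which were not used here, so counts and heights are not corrected for depth, and a peak that is not listed is not evidence that the factor was absent.

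Genes came from GENCODE M21 and bases from GRCm38.p6, whose chromosome lengths no peak exceeded. Promoters were 2 kb on either side of a start, as in the study. Peaks sharing at least 1 bp were merged, with pandas 2.3.3, SciPy 1.17.1 and pysam 0.24.0 in Python 3.11.15. Counting, merging and intervals were tested on simulated peaks. The members and gene lists were chosen with earlier results of these data known. Named regions were the one in most libraries per gene, the highest summit per library, the region of highest summed score in both forms of 1 factor only, and the genes with most and fewest summits in each further list. Alternatives were other windows, promoter distances, score and height minimums, overlap rules, equal peak numbers and each gene left out. Peaks off the placed chromosomes (110) were left out of gene counts.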

Additional observations from a re-analysis of the deposited data

Results flagged for a closer look

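The Nr5a2 libraries went against the other factors in the number of summits at the 10 genes. The log2 ratio of BiD over native was -0.80 for Nr5a2 and above 0 for Nanog, Oct4 and Sox2. For Nanog the interval spanned 0 (-0.40 to 0.84). The Nr5a2 ratio was also negative over all coding genes (-0.56) and over all peaks (-0.50), so this was not particular to the 10 genes. The own-promoter share of summits was lower with the fusion for Nanog (-0.98 percentage points) and for Sox2 (-1.28) and higher for Oct4 and Nr5a2. With 1 library per group, neither difference between factors was tested.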

How the results depend on the processing

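No paired analysis was possible because each group has 1 library and the labels give no replicate numbers. The 4 factors, each with a native and a BiD library, are not replicates of 1 condition and were not tested together. The sign of the log2 ratio of summits held under every alternative run with Oct4, Sox2 and Nr5a2, and the Nanog ratio was -0.08 within 50 kb and -0.14 within 20 kb. With a height of at least 20 tags it was 1.0 for Nanog and 1.70 for Oct4. With the 20000 peaks of highest score it was 0.21 for Oct4, and per 10000 peaks it was 0.11 for Oct4, 0.30 for Sox2 and -0.30 for Nr5a2. The sign of the own-promoter difference was not stable with Oct4 (-1.18 at a score of at least 100) or Sox2 (1.15 with the first start site only). It was -22.22 percentage points for Nanog and 9.09 for Sox2 with the 20000 top peaks, which leave 6 to 11 summits in these libraries. With summits within 100 bp counted as shared, the Jaccard index was 0.305 for same-factor pairs and 0.0506 for pairs of different factors, and 65.2% of regions were in 1 library. With the 20000 top peaks these values were 0.304, 0.0301 and 65.8%, and with a score of at least 100 the share in 1 library was 55.4%. Leaving out each gene in turn gave log2 ratios of 0.11 to 0.35 (Nanog), 0.8 to 1.05 (Oct4), 1.22 to 1.51 (Sox2) and -0.88 to -0.73 (Nr5a2), Jaccard indices of 0.405 to 0.443 and 0.093 to 0.111, and a share of 46.6 to 49.4% in 1 library. With the first start site of each gene alone, 14 of the 31 own-promoter summits were left, and with basic protein-coding starts (chosen after seeing the data) 23. The Nr5a2 share of summits was also taken with settings chosen after seeing the data. Within 50 kb it was 81.5% at Gata4 (22 of 27 summits), 93.8% at Tfap2c (15 of 16), 63.6% at Hnf4a and 57.1% at Cdx2. No share over all genes was computed for that window. It was 20% at Cdx2 with the 20000 top peaks. In the native libraries alone it was 70.6% at Gata4, 77.8% at Tfap2c, 64.7% at Hnf4a and 66.7% at Cdx2, against 36.7% of all peaks. No value was corrected for sequencing depth, so counts between libraries carry that limit. The cause of these changes was not tested.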
